A study of Mus musculus with 6 samples.

Results

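The genes of Notch signaling described here are 10 of the 18,049 genes of an RNA-Seq table of colonic crypts: the receptors Notch1, Notch2 and Notch3, the ligands Dll1, Dll4, Jag1 and Jag2, the DNA-binding partner Rbpj, and the target genes Hes1 and Nrarp. They were chosen by name, and all 10 were in the table and matched 1 gene each in the annotation. The 6 libraries came from 3 control and 3 GSK503-treated mice of 1 engineered line, which carries Villin-Cre, active in the intestinal epithelium, and a floxed allele, and in which the mouse type II TGF-β receptor gene is replaced by a humanized form carrying a poly(A) repeat. All 6 mice shared this genotype, the C57BL/6J background and a Western-style diet begun at 8 weeks of age. Treated mice received GSK503, an inhibitor of the histone methyltransferase EZH2, at 200 μg/kg by tail vein, on a schedule described as biweekly, for 9 weeks. Control mice received the vehicle, 20% captisol in PBS. Each library is 1 mouse, and the ages at collection of these mice are not given in the sources used here.

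Notch signaling passes between touching cells. A Delta-like or Jagged ligand on one cell binds a Notch receptor on its neighbor, proteases release the intracellular part of the receptor, and this fragment joins Rbpj in the nucleus to switch on targets such as Hes1 and Nrarp. In the intestinal crypt, cells that receive the signal keep to the progenitor and absorptive path, because Hes1 represses Atoh1, the factor that starts the secretory path to goblet, enteroendocrine and Paneth cells.

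Estimated library totals were 108,162,848 to 135,085,027 counts, and values are given as CPM, estimated counts scaled by the authors to the TMM-normalized library size. Markers of epithelium were abundant in every library, with Epcam at 1802 to 2032 CPM, whereas Cdh5, the endothelial cadherin, was at 0.175 to 1.082 CPM. The libraries also differed by sex-linked genes. Xist, transcribed from the inactive X chromosome, was at 0.419 to 0.936 CPM in control mice and 825 to 1236 CPM in GSK503-treated mice, and the Y-linked gene Uty was at 42.5 to 53.7 and 0.670 to 1.082 CPM. The labels give no sex for these mice, so treatment and the sex shown by these genes cannot be told apart in any difference between the groups, those of the Notch genes included.

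None of the 10 genes passed the test between the groups. At an adjusted p of 0.05 (limma, adjusted over 16,670 genes tested) 0 of 10 were called, beside 0.642% of all genes tested, and at 0.1 the count was again 0 of 10, beside 1.97%. Before adjustment, p was under 0.05 for 3 of the 10, Notch1, Notch2 and Rbpj, beside 13.3% of all genes in either direction and 6.27% lower, and a second fit, limma-voom on estimated counts, also called 0. The 3 GSK503-treated values lay wholly below the 3 control values for Notch1, Notch2 and Rbpj and wholly above them for Dll4. These 4 of 10 stand beside 19.1% of all genes tested without overlap in either direction, 9.22% lower and 9.84% higher. The median log2 fold change (log2FC) of the 10 genes was −0.13, against −0.01 for all genes tested, with 7 means lower and 3 higher after treatment. All log2FC values are GSK503 minus control on log2(CPM + 0.1), a scale that understates the changes of genes with low values.

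**Figure D1:**
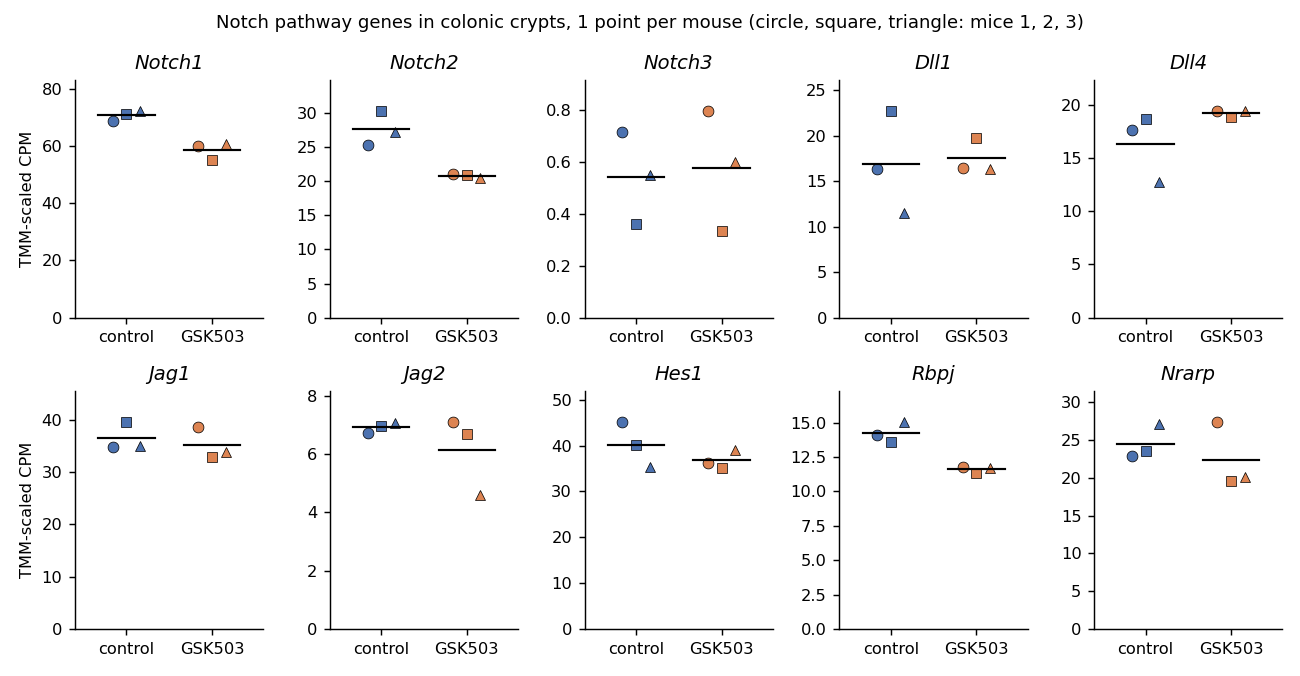
TMM-scaled values (CPM, vertical axes, each from 0 on its own scale) of the 10 Notch genes in 3 control and 3 GSK503-treated mice, with 1 point per mouse and a bar at the group mean. Notch1, Notch2 and Rbpj were lower in all 3 treated mice than in any control mouse, Dll4 was higher, and the groups of the other 6 genes overlapped.

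The RefSeq promoter windows of those 4 genes are shown because their groups did not overlap. Each window runs from 250 bases before to 50 bases after an annotated start, in the RefSeq table for GRCm38.p6, and was found once in the GRCm39 chromosome, whose coordinates are given. Capitals mark the core letters bound by Rbpj, TGGGAA, or the N-box CACNAG, a site of Hes repressors, on either strand, TGGGAA reading TTCCCA on the other. The Notch1 window is chr2:26393785-26394084 on the minus strand, the Notch2 window chr3:97920604-97920903 on the plus strand, the Dll4 window chr2:119156015-119156314 on the plus strand, and the Rbpj window chr5:53747438-53747737 on the plus strand.
Notch1: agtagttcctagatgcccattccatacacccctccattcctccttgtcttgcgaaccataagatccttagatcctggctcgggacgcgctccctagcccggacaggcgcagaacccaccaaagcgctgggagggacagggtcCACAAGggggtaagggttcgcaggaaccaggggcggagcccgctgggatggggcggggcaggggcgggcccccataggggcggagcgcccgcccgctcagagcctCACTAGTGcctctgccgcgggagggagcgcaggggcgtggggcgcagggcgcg
Notch2: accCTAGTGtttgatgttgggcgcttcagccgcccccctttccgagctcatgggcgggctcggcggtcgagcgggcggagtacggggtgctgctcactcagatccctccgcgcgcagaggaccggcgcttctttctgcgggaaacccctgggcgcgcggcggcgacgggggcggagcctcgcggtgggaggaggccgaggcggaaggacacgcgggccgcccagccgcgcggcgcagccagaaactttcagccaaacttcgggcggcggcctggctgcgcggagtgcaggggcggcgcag
Dll4: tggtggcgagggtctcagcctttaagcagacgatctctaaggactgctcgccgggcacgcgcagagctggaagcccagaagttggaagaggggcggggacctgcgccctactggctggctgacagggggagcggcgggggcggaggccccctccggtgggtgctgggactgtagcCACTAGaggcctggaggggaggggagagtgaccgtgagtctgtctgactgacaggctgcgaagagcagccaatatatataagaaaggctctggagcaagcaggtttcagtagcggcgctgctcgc
Rbpj: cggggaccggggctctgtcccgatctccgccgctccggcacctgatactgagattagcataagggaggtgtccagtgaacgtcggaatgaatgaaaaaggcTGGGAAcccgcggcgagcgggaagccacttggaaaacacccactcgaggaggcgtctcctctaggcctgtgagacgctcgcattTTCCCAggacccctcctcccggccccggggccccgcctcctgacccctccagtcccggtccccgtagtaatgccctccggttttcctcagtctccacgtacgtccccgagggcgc

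The windows of Notch1 and Notch2 were 68.3% and 73.0% G and C, with 23 and 41 CpG dinucleotides, and those of Dll4 and Rbpj were 63.7% and 64.7%, with 17 and 26, against medians of 52.7% and 7 over the windows of all genes. In the Rbpj window TGGGAA began 149 bases before the start on the plus strand, and its reverse, TTCCCA, 65 bases before it. Of the 9 Notch genes with a window (all but Hes1), in 11 windows, these letters were found for Rbpj alone, once in its second window, which overlaps the first, and 25.6% of 32,851 windows of all genes held them, 3.79% at 2 places or more. The Notch1 window held CACNAG at 3 places, of which 2 overlap as one palindrome across the start, and the Notch2 and Dll4 windows held it at 1 place each. Among all windows 42.5% held it, 11.3% at 2 places or more. Of the genes whose groups overlapped, Nrarp and Notch3 held it at 2 places each and Dll1 at 1 place, while Jag1 and Jag2 did not hold it. These matches describe letters, not bound sites.

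Notch1 (chr2:26347915-26406675, minus strand, GRCm39), the main receptor of the intestinal epithelium with Notch2, was at 68.9, 71.0 and 72.3 CPM in the control mice and 60.1, 55.0 and 60.7 CPM after GSK503. The 2 sets of values were each tight, and the highest treated mouse stayed under the lowest control mouse. The means were 70.7 ± 1.73 and 58.6 ± 3.11 CPM (SD, n = 3 each), a log2FC of −0.27 (SE 0.07, 95% interval −0.44 to −0.11, limma adjusted p = 0.142). The exact two-sided permutation test gave p = 0.1, the smallest value that 3 against 3 mice can reach. The paper, which used edgeR on crypt RNA, names Notch1 among its downregulated genes, so the outcome for this gene differs from that of the limma test here.

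Notch2 (chr3:97920800-98057677, plus strand) had 25.3, 30.4 and 27.3 CPM in control mice against 21.1, 21.0 and 20.5 CPM in treated mice. The treated values were almost level with each other, and control mouse 2 was the highest of the 6. The means, 27.7 ± 2.55 and 20.8 ± 0.311 CPM (SD, n = 3 each), differed by a log2FC of −0.40 (SE 0.10, 95% interval −0.62 to −0.19, limma adjusted p = 0.103), the largest difference in size and the smallest adjusted p of the 10 genes. The exact permutation p was 0.1 here too.

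Notch3 (chr17:32339794-32385893, minus strand), a receptor best known in vascular smooth muscle and pericytes, was close to absent. Its values were 0.716, 0.362 and 0.551 CPM in control mice and 0.797, 0.335 and 0.599 CPM in treated mice, which stand for 40 to 94 estimated counts a library. The groups overlapped almost completely (log2FC 0.05, SE 0.41, 95% interval −0.87 to 0.97, limma adjusted p = 0.972), so a change of 1.5-fold in either direction lies inside the interval. The part of mural cells in the Notch3 values was not tested.

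Notch4, the remaining receptor and one best known in endothelium, was not among the 10 but had the opposite pattern to Notch1 and Notch2. It measured 8.18, 8.005 and 5.99 CPM in control mice and 11.8, 10.6 and 9.88 CPM in treated mice, without overlap (log2FC 0.55, SE 0.16, limma adjusted p = 0.176). The 12 endothelial markers summed to 14.5 to 17.5 CPM in control mice and 15.9 to 29.2 CPM in treated mice. At an adjusted p of 0.1 (limma), 1 of the 12, Vwf, was higher (log2FC 0.87, adjusted p = 0.0505), beside 1.41% of all genes, and 0 were lower. The fitted log2FC was below 0 for 8 of 12. The defining markers Cdh5 and Pecam1 had means of 0.427 and 2.52 CPM in control mice and 0.495 and 2.33 CPM in treated mice, and Eng was at 0 in treated mouse 2. The part of endothelial cells in the Notch4 values was not tested.

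Among the ligands, Dll4 (chr2:119156170-119166443, plus strand), which with Dll1 supplies the signal to crypt stem cells, was at 17.7, 18.7 and 12.8 CPM in control mice and 19.4, 18.9 and 19.4 CPM after GSK503. The treated mice were nearly identical, and the distance between the means, 16.4 ± 3.15 and 19.3 ± 0.316 CPM (SD, n = 3 each), came largely from control mouse 3. The log2FC was 0.25 (SE 0.14, 95% interval −0.07 to 0.58, limma adjusted p = 0.496) and was 0.08 with control mouse 3 left out.

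Dll1 (chr17:15587276-15597134, minus strand) varied most among the control mice, with 16.3, 22.7 and 11.5 CPM against 16.5, 19.7 and 16.3 CPM in treated mice. Control mouse 3 was again the lowest and control mouse 2 the highest, and the treated values fell between them. The log2FC was 0.10 (SE 0.21, 95% interval −0.38 to 0.58, limma adjusted p = 0.888), and it was −0.14 without control mouse 3 and 0.34 without control mouse 2. Exons of Fam120b on the opposite strand cover 27.6% of the exon bases of Dll1, Fam120b averaged 77.5 CPM, and the strand setting of the counting is not given in the sources used here, so reads of the 2 genes may not be told apart.

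The Jagged ligands differed little. Jag1 (chr2:136923373-136958693, minus strand) was at 34.7, 39.5 and 35.01 CPM in control mice and 38.7, 32.8 and 33.8 CPM in treated mice, with a log2FC of −0.05 (SE 0.10, 95% interval −0.27 to 0.16, limma adjusted p = 0.861). Jag2 (chr12:112871421-112893437, minus strand) was at 6.72, 6.98 and 7.08 CPM in control mice and 7.10, 6.69 and 4.61 CPM in treated mice. Treated mouse 3 alone carried the Jag2 difference (log2FC −0.20, SE 0.19, 95% interval −0.62 to 0.22, limma adjusted p = 0.701), which was −0.0067 without it.

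Rbpj (chr5:53623494-53814704, plus strand), the nuclear partner that ties every Notch receptor to DNA, was at 14.1, 13.6 and 15.05 CPM in control mice and 11.8, 11.4 and 11.7 CPM after GSK503. All 3 treated mice lay below the controls and close to one another. The means of 14.3 ± 0.728 and 11.6 ± 0.211 CPM (SD, n = 3 each) gave a log2FC of −0.29 (SE 0.11, 95% interval −0.53 to −0.05, limma adjusted p = 0.284), with an exact permutation p of 0.1.

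The Rbpj value is uncertain because of a near copy. Rbpj-ps3, a processed pseudogene on chromosome 6, is 99.7% identical to the Rbpj transcript over 1441 aligned bases, and 83.1% of its 76-base stretches, the read length of this study, occur unchanged in Rbpj. The first 76 bases of the longest identical run, which is 638 bases of coding sequence, show a read that cannot be placed between them.
Rbpj and Rbpj-ps3: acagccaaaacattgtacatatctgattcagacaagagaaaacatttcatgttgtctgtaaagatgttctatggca

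Rbpj-ps3 was itself listed at 12.01, 10.1 and 11.7 CPM in control mice and 11.5, 10.7 and 8.98 CPM in treated mice, nearly the level of Rbpj, and its groups overlapped (log2FC −0.12, limma adjusted p = 0.76). The sum of Rbpj and Rbpj-ps3 was 26.1, 23.8 and 26.8 CPM against 23.3, 22.1 and 20.7 CPM, still without overlap, with a log2FC of −0.21 (SE 0.10, limma adjusted p = 0.374). This sum was added after the data were seen.

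Hes1 (chr16:29882134-29886643, plus strand), the transcriptional repressor that is the classic Notch target in crypts, was at 45.1, 40.2 and 35.3 CPM in control mice and 36.1, 35.2 and 39.1 CPM in treated mice. Control mouse 3 was as low as the treated mice, and the groups overlapped. The means were 40.2 ± 4.94 and 36.8 ± 2.07 CPM (SD, n = 3 each), a log2FC of −0.12 (SE 0.10, 95% interval −0.35 to 0.11, limma adjusted p = 0.66), which was −0.03 without control mouse 1 and −0.21 without control mouse 3.

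Nrarp (chr2:25070770-25073351, plus strand), a target that feeds back to dampen the Notch complex, was at 22.9, 23.5 and 27.1 CPM in control mice and 27.4, 19.6 and 20.1 CPM in treated mice. Treated mouse 1 was the highest of all 6 mice, while the other two treated mice were the lowest. The log2FC was −0.15 (SE 0.14, 95% interval −0.46 to 0.17, limma adjusted p = 0.702), and ranged from −0.30 without treated mouse 1 to −0.06 without treated mouse 2. Gm38287, annotated on the other strand, covers 79.4% of the Nrarp exon bases and was not among the genes of the table.

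**Figure D2:**
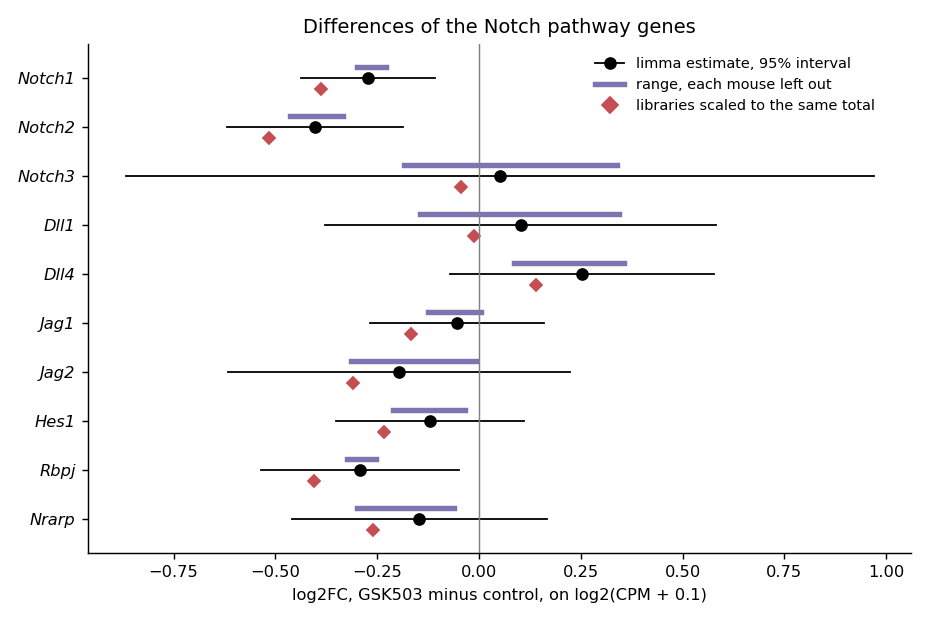
log2FC (horizontal axis, GSK503 minus control on log2(CPM + 0.1)) of the 10 Notch genes with the limma 95% interval, the range over fits that left out each mouse in turn, and the estimate with libraries scaled to the same total. The intervals of Notch1, Notch2 and Rbpj lie below 0, although their adjusted p values were 0.142, 0.103 and 0.284, and those of the other 7 genes cross 0.

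The scaling of the libraries bears on these values. The authors scaled them by TMM, and with each library scaled to the same total instead, the median log2FC of all genes tested moved to −0.12, and Notch1 (−0.39, limma adjusted p = 0.0449) and Notch2 (−0.52, adjusted p = 0.0406) passed 0.05. Relative to that median they were −0.27 and −0.40, as under TMM, and Rbpj was −0.29. The estimates for Notch3 and Dll1, at −0.044 and −0.012 under that scaling, were 0.07 and 0.10 relative to the median. Over all genes, calls at an adjusted p of 0.1 were 235 higher and 93 lower under TMM (71.6% higher) and 221 higher and 795 lower with equal totals (21.8% higher).

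Marker lists of other cells, several of which differed between the groups, are given here as summed levels. The 7 goblet cell markers summed to 10,786 to 19,237 CPM in control mice and 33,642 to 51,850 CPM in treated mice, with 4 of 7 higher at an adjusted p of 0.05. The 8 enteroendocrine markers summed to 215 to 255 and 129 to 164 CPM, with 3 of 8 lower at that threshold. Over all genes tested, 0.642% were called at 0.05 in either direction. The 8 stem cell markers summed to 683 to 734 CPM in control mice and 580 to 654 CPM in treated mice, a separation carried by Slc12a2, since the other 7 summed to 225 to 233 and 191 to 248 CPM. Of these markers 0 of 8 were called, with 1 of 8 at an unadjusted p under 0.05 (limma), beside 13.3% of all genes. The 6 B cell markers summed to 10.5, 28.2 and 4.15 CPM in control mice and to 2.97, 1.13 and 3.77 CPM in treated mice, and Cd79a was at 0 in treated mouse 2. All 6 had a log2FC below 0, with a median of −2.03. An unadjusted p under 0.05 (limma) was found for 5 of them, beside 13.3% of all genes. At an adjusted p of 0.1, 1 of the 6 was lower, beside 1.97% of all genes in either direction. The part of these cells in the values of Notch1, Notch2 and Rbpj was not tested, and in bulk crypts fewer cells of a type and less RNA per cell cannot be told apart.

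Stromal and myeloid markers varied widely between mice. The 12 smooth muscle and mural markers summed to 115, 204 and 165 CPM in control mice and 87.7, 91.7 and 238 CPM in treated mice, and the 9 macrophage markers to 29.5, 49.7 and 29.1 and to 11.7, 8.03 and 66.7 CPM. The log2FC was below 0 for all 12 and all 9, with medians of −1.65 and −0.52. At an adjusted p of 0.1 (limma), 0 of either list were called. Treated mouse 3 was the highest for both lists, control mouse 2 the next, and treated mice 1 and 2 the lowest, also without Mylk, the most abundant mural marker (18.6 and 14.7 CPM left in treated mice 1 and 2). Lmod1 was at 0 in treated mouse 2 and Cd163 in treated mouse 1. Of 8 fibroblast markers 6 had a log2FC below 0, with a median of −0.65, while their sum of 224 to 282 CPM in control and 270 to 406 CPM in treated mice rested mostly on Gsn. At an adjusted p of 0.1 (limma), 1 of the 8 was higher, beside 1.41% of all genes, and 0 were lower. Without Gsn the sum was 66.3, 86.4 and 68.0 CPM in control mice and 27.3, 37.8 and 123 CPM in treated mice. Lum was at 0 in treated mouse 1, and 7 T cell markers summed to 11.7 to 18.6 and 11.03 to 14.3 CPM. The most abundant genes of each list were Krt8 and Krt19 for epithelium, Clca1 and Fcgbp for goblet, Chga and Chgb for enteroendocrine and Slc12a2 and Cdca7 for stem cells, Mylk and Pdgfrb for smooth muscle and mural cells, Egfl7 and Vwf for endothelium, Gsn and Col3a1 for fibroblasts, Lyz2 and C1qa for macrophages, Ighm and Cd79b for B cells, and Cd8a and Cd3g for T cells. Notch1, Notch2 and Rbpj kept a log2FC of −0.30 to −0.23, −0.46 to −0.33 and −0.32 to −0.25 whichever mouse was left out. Their smallest adjusted p values in these fits (limma) were 0.119, 0.119 and 0.281. Whether stromal and myeloid cells had a part in the values of Notch1, Notch2 and Rbpj was not tested.

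Per kilobase of transcript, a scale on which levels of different genes can be compared, Hes1 was the most abundant of the 10 in control mice, with a mean of 26.3 CPM per kb and a range of 23.1 to 29.5. Nrarp followed at 9.49, Notch1 at 7.46, Jag1 at 6.34, Dll4 at 4.26 and Dll1 at 4.14 CPM per kb. Rbpj and Notch2 were level at 2.62 (4.70 for Rbpj if the reads of Rbpj-ps3 are counted to it, above Dll4 and Dll1), Jag2 was at 1.34 and Notch3 at 0.0671 CPM per kb. Dll4 and Dll1 could not be ordered in control mice, nor could Rbpj and Notch2, since their values overlapped, while each other neighbor in this order was separate in all 3 mice. After treatment Dll4 (5.01), Dll1 (4.30), Rbpj (2.14) and Notch2 (1.98) were each separate, and Notch1 (6.18) overlapped with Jag1 (6.11). Notch1 was thus the leading receptor in both groups, and Jag1 the leading ligand.

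**Figure D3:**
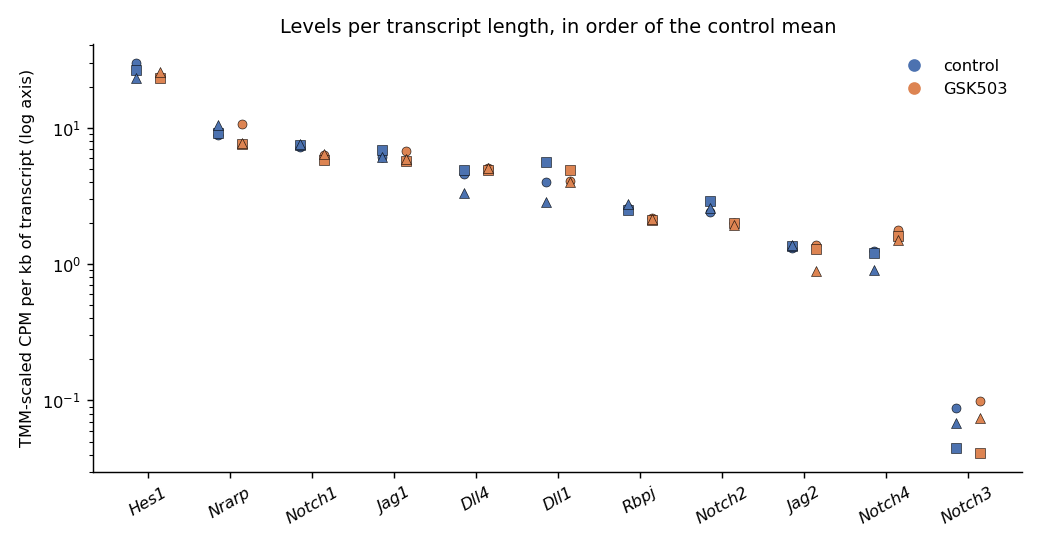
Levels per kilobase of the annotated main transcript (vertical axis, log scale, CPM per kb) of the 10 genes and Notch4 in each of the 6 mice, in order of the control mean. Hes1 stood at 23.0 to 29.5 and Notch3 under 0.1 CPM per kb in every mouse.

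Summed per kilobase, the 3 receptors were at 9.75, 10.4 and 10.3 CPM per kb in control mice and 8.43, 7.83 and 8.41 CPM per kb in treated mice, without overlap. The 4 ligands summed to 15.96, 18.7 and 13.6 CPM per kb in control mice and 17.2, 16.8 and 15.9 CPM per kb in treated mice, with overlap. The ligand sum over the receptor sum was therefore 1.33 to 1.79 in control mice and 1.88 to 2.14 in treated mice. Notch4 was left out of this receptor sum and went the other way, at 0.905 to 1.24 and 1.49 to 1.79 CPM per kb. The ratio separated the groups for these 3 receptors only. With Notch4 added to the receptor sum, the ratios of the 2 groups overlapped. These sums are a description, with no test.

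The wider pathway was described by 66 listed genes, of which 63 were in the table and 62 were tested. At an adjusted p of 0.05, 0 of 62 were called (limma, and 0 with limma-voom), 12 (19.4%) had an unadjusted p under 0.05, beside 13.3% of all genes, and at an adjusted p of 0.1 1 (1.61%) was lower and 0 were higher, beside 1.97%. That gene was Dtx4, a Deltex ubiquitin ligase that acts on Notch receptors, at 29.5, 27.8 and 27.5 CPM in control mice and 21.5, 20.7 and 21.7 CPM in treated mice (log2FC −0.41, SE 0.09, limma adjusted p = 0.0741). Its 3 treated values were within a narrow band below the controls. The call at 0.1 was held under 9 of 16 alternatives and lost without the intensity trend, with the replicate block, and in 5 of 6 fits leaving out 1 mouse, all but that without treated mouse 3. Groups did not overlap for 14 of the 62 genes, 11 of them lower and 3 higher, beside the 9.22% and 9.84% of all genes given above. The median log2FC of the list was −0.04, with 26 log2FC values above 0 and 36 below.

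By role, the lower genes without overlap, beside 9.22% of all genes, included 5 of the 10 that control receptor turnover, a group picked out after the values were seen. These were Dtx4, Dtx3l, Dtx1, Nedd4 and Fbxw7, the last of which marks the released Notch fragment for destruction. Dtx3l was at 121, 170 and 168 CPM in control mice and 112, 103 and 119 CPM in treated mice (log2FC −0.44, limma adjusted p = 0.169). Of 8 coactivators, the acetyltransferases Ep300 (log2FC −0.32, adjusted p = 0.153) and Crebbp (−0.38, adjusted p = 0.212) were lower without overlap, and of 15 corepressors Ncor1 was (−0.27, adjusted p = 0.27), whereas the histone deacetylase Hdac1 overlapped (−0.21, adjusted p = 0.433). Their medians were −0.06 for receptor turnover, −0.13 for coactivators and −0.05 for corepressors, against −0.01 for all genes tested.

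None of the enzymes that prepare ligands and receptors passed the test at 0.1. The log2FC of Mib1, the ubiquitin ligase that lets a ligand pull on its receptor, was −0.20 (limma adjusted p = 0.374), and that of Poglut1, which adds O-glucose to the receptor, was −0.32 (adjusted p = 0.257), both lower without overlap. Adam10, the protease of the first activating cut, had −0.31 (adjusted p = 0.291) with overlap, and Lfng, a Fringe glycosyltransferase, 0.33 (adjusted p = 0.452). In γ-secretase, the complex of the second cut, the subunit Psenen was higher without overlap (0.20, adjusted p = 0.312) and Ncstn lower (−0.11, adjusted p = 0.545), and Aph1c had 0.76 (adjusted p = 0.498) with overlap. The ligase Neurl1a (0.34, adjusted p = 0.663) and Furin, which processes new receptors (0.15, adjusted p = 0.542), also overlapped. The medians were −0.02 for 4 ligand ubiquitin ligases, −0.21 for 5 glycosylation enzymes, −0.0045 for 3 receptor proteases and 0.01 for 7 γ-secretase genes.

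Other genes of the Hes and Hey family gave no common direction. Hes6, an antagonist of Hes1, was higher without overlap (log2FC 0.31, limma adjusted p = 0.303), whereas Hey1 had −0.77 (adjusted p = 0.52), with overlap. Of the 9 listed, 6 were tested, 4 with a log2FC above and 2 below 0, and the median was 0.29. Hey2 was at 0 to 0.119 CPM and was under the minimum for testing. Among other receptors and ligands, Dlk1, a non-canonical ligand, had −0.48 (adjusted p = 0.54), and the median of the 4 tested was 0.05.

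**Figure D4:**
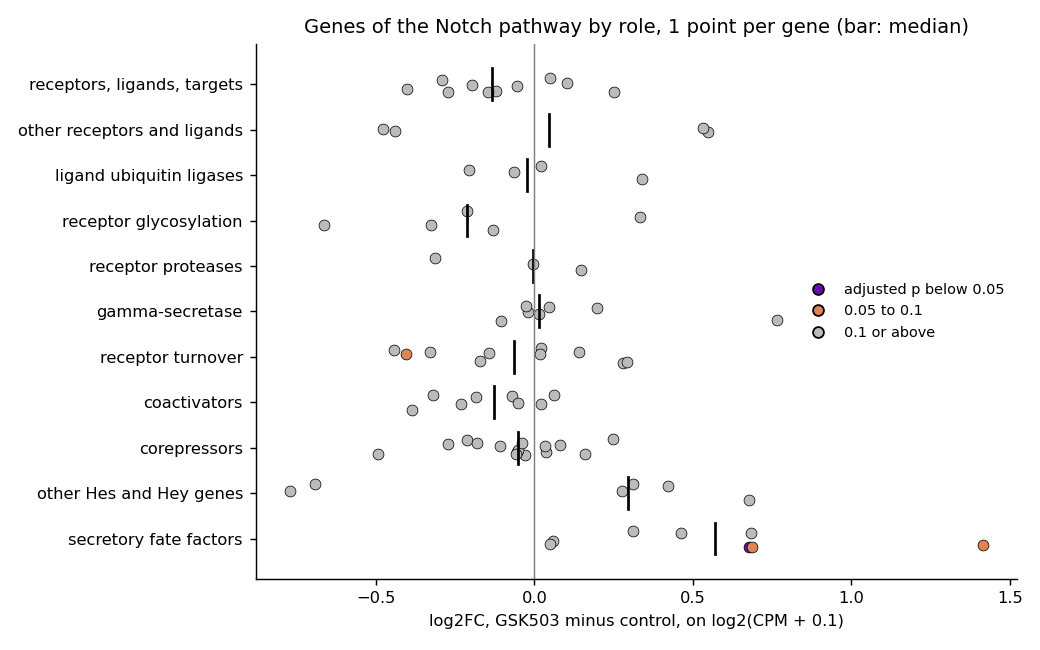
log2FC (horizontal axis) of each gene by role in the Notch pathway, 1 point per gene, with the list median as a bar and color for the limma adjusted p. In the pathway lists Dtx4 alone was under 0.1 (adjusted p = 0.0741), and the secretory fate factors, at the bottom, lie at or to the right of 0 with a median of 0.57.

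The factors of secretory fate lie downstream of Hes1. Of 8 tested, all 8 means were higher after treatment, with a median log2FC of 0.57. For 6 of them the groups did not overlap, beside 9.84% of all genes higher without overlap. The groups overlapped for Neurog3 (log2FC 0.06, limma adjusted p = 0.966) and Creb3l1 (0.05, adjusted p = 0.88). The 8 markers of enteroendocrine cells, which also arise on the secretory path, all had a log2FC below 0. At an adjusted p of 0.05 1 of 8 was called, beside 0.642% of all genes, and at 0.1 3 of 8 were higher, beside 1.41%. Spdef, which drives goblet cell maturation, rose from 79.7, 90.3 and 65.0 CPM to 114, 137 and 122 CPM (log2FC 0.68, limma adjusted p = 0.0459). At the 0.1 threshold Foxa3, a goblet cell factor, rose from 41.5, 45.1 and 30.5 CPM to 54.9, 67.6 and 64.2 CPM (log2FC 0.69, limma adjusted p = 0.0732), and the log2FC of Bhlha15, a factor of secretory cell architecture, was 1.41 (adjusted p = 0.0505).

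Atoh1, the gene that Hes1 represses, was at 81.8, 94.2 and 69.7 CPM in control mice and 101, 112 and 124 CPM in treated mice, and Gfi1, its target, at 8.11, 9.67 and 5.75 CPM and 11.1, 12.1 and 14.1 CPM. Neither passed the test (log2FC 0.46 and 0.68, limma adjusted p = 0.123 and 0.162), although every treated mouse exceeded every control mouse. The ratio of Hes1 to Atoh1 was 0.551, 0.427 and 0.506 in control mice and 0.357, 0.315 and 0.315 in treated mice. Atoh1 values alone already showed this separation, and Hes1 values alone did not. The goblet cell markers that moved with these factors are given above, and their part in the ratio was not tested.

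**Figure D5:**
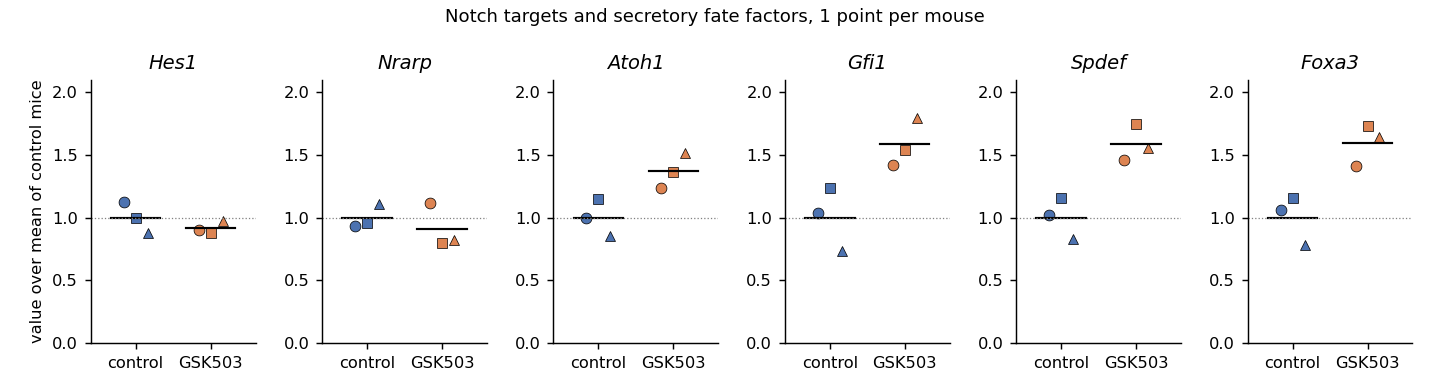
Values of Hes1, Nrarp and 4 secretory fate factors in each mouse, divided by the control mean of the gene (vertical axes, from 0), with bars at group means. Hes1 and Nrarp overlap between the groups around 1, whereas Atoh1, Gfi1, Spdef and Foxa3 were higher in all 3 treated mice.

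The genes whose profile over the 6 mice was most like that of each Notch gene were found by the root mean square distance of centered log2 values, smaller being more alike, among 12,796 genes (12,797 for Notch3) with a mean of 1 CPM or more. For Rbpj these were Arid4b (0.014), Dusp16 (0.019) and Adgrg7 (0.022), which together with Rbpj had log2FC values of −0.29 to −0.28. A like log2FC follows from the choice by profile and is no added result. For Notch1 they were B3glct (0.033) and Abcc4 (0.038), and for Notch2 Ctdspl (0.034), Rnf150 (0.055) and Hnrnph3 (0.057). Dll4 was most like Oaz2 (0.034), Hes1 like Lipg (0.029), Jag1 like Rpia (0.034), Jag2 like Abcc3 (0.037) and Nrarp like Ccdc166 (0.033). Dll1 and Notch3 had more distant nearest genes, Ifit3 (0.078) and Stx1a (0.124). No Notch gene was among the 3 nearest profiles of another. With 3 places among 12,796 candidates this outcome was likely in any case, and it does not show whether the Notch genes vary together.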

How the data were processed

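Crypt RNA was prepared by the authors as a stranded total RNA library and sequenced as 76 bp paired-end reads. Per the methods and the submitters' processing notes, reads were aligned to GRCm39 with STAR 2.7.9a, counted with RSEM 1.3.1 and scaled by TMM in edgeR. The deposited signal values behave as RSEM estimated counts divided by a TMM-scaled library size (called CPM here): 74.9% to 77.7% of values were whole multiples (tolerance 0.001) of what 1 count is worth, which gave the library totals. A floor of 3 counts is 0.0228 to 0.0271 CPM, for counting error only.

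Genes at 0.1 CPM or more in at least 3 of 6 mice were tested with limma 3.58.1 (R 4.3.3, trend) on log2(CPM + 0.1), with Benjamini-Hochberg adjustment over all genes tested and checked on simulated data. Single genes also had an exact permutation test. Replicates were separate mice, and equal replicate numbers did not pair them. The members and gene lists were chosen with earlier results of these data known. Genes named outside the 10 were, by rule, those of a pathway or secretory list with an adjusted p under 0.1 or otherwise the 2 with the smallest p, the 2 most abundant of each cell type list, the sex-linked genes, and the 3 nearest profiles, of which the text gives some. Other genes named (Dtx3l, Dtx1, Nedd4, Fbxw7, Ncstn, Hey2, Atoh1, Gfi1, Neurog3, Creb3l1, Fam120b, Gm38287, Rbpj-ps3, Epcam and the markers at or near 0) were chosen after their values were seen. Positions and transcript lengths came from the GENCODE annotation of GRCm39, and promoter windows from RefSeq. Alternatives covered scaling, filter, pseudocount, trend, robust fit, voom, replicate block and each mouse left out. The floxed gene of the line is not reported here.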

Additional observations from a re-analysis of the deposited data

How the results depend on the processing

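With each library scaled to the same total, 2 of the 10 Notch genes were called at an adjusted p of 0.05 (limma), Notch1 (−0.39) and Notch2 (−0.52), 3 at 0.1, with Rbpj added, 2 of the wider pathway, Dtx4 and Ep300, and 261 of all genes against 107, with Notch3 and Dll1 at −0.044 and −0.012, or 0.07 and 0.10 relative to the median of all genes. Notch2 was the 1 call at 0.1 with a minimum of 1 CPM (adjusted p = 0.0898) and with a robust fit (0.0945). Without the intensity trend 16 of all genes were called. No other setting called any of the 10.

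Equal replicate numbers did not mark paired mice: the correlations of their deviations were 0.03, −0.13 and −0.12. With the replicate number as a block 33 of all genes were called, and 0 of the 10.

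Leaving out each mouse in turn gave 29 to 216 calls over all genes (29 without GSK503 mouse 2, 44 without control mouse 2, 49 without control mouse 3, 63 without GSK503 mouse 1 and 216 without GSK503 mouse 3), 0 to 1 in the wider pathway (Dtx3l without control mouse 1, −0.61, adjusted p = 0.0254) and 4 to 7 of the 10 without overlap, 7 without GSK503 mouse 1. Groups with fewer mice separate more easily, and the share of all genes without overlap was not computed for these fits. The counts without overlap therefore say nothing particular about the 10 genes. The log2FC ranged from −0.18 to 0.34 for Notch3, negative without control mouse 2 (−0.17), GSK503 mouse 1 (−0.18) or GSK503 mouse 3 (−0.0036), from −0.14 to 0.34 for Dll1, negative without control mouse 3, and from −0.13 to 0.0060 for Jag1, positive without control mouse 2. The cause was not tested for any of these. The 6 libraries limit what can be called, and Notch3 rests on 40 to 94 counts a library.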
